A study of Mus musculus with 6 samples.

Results

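The genes described here are the segments of the T cell receptor beta chain locus (Trb) of the mouse, read from bulk RNA-seq gene counts of sorted spleen CD4 T cells. All rows of the count table whose Ensembl identifier carries a symbol starting with Trbv, Trbd, Trbj or Trbc in GENCODE mouse release 21 (GRCm38) were taken, which gave 53 of 47729 identifiers. They comprise 35 variable segments (Trbv, of which the annotation types 22 as V genes and 13 as pseudogenes), 2 diversity segments (Trbd), 14 joining segments (Trbj, of which 1 is a pseudogene) and 2 constant segments (Trbc). They lie on chromosome 6 between positions 40891229 and 41558452, a span of 667.2 kb. The rule uses symbols and no measured value, but it was set with earlier results of these data known.

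The 3 groups compared held 2 libraries each. OFF cells were CD3+CD4+CD25-CD45RBint spleen cells of RBPJind mice that drank doxycycline (Dox) for 3 weeks and were then kept without it for 1 week, and the design text calls them Notch unresponsive. ON cells carried the same surface markers and came from RBPJind mice given Dox for 4 weeks, and are called Notch responsive. WT cells were mature cells of wild-type mice sorted through another gate, CD3+CD4+CD25-CD45RBhi, so that in both comparisons with WT the genotype and the CD45RB gate cannot be told apart. The labels list Dox as the treatment of all 6 libraries, do not give how long WT mice received it, and do not spell out the alleles behind the name RBPJind. The strain, the age and sex of the mice and whether the replicates came from separate animals are not stated in the labels, so each p-value measures the spread between these libraries only, which may be technical.

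A T cell receptor beta gene is assembled in the thymus. The RAG recombinase joins a D segment to a J segment and then a V segment to the DJ unit, and transcription and splicing attach a constant segment. The mouse locus holds a pair of D-J-C clusters, so a chain that uses Trbj1 segments is spliced to Trbc1 and a chain that uses Trbj2 segments to Trbc2. Most V segments lie upstream of the clusters in the same orientation and are joined by deletion, whereas Trbv31 lies downstream of Trbc2 in the opposite orientation and is joined by inversion. In a polyclonal population the share of transcripts from each V segment reflects how often it was assembled, which cells survived selection and how much RNA each cell made. In these bulk samples, fewer cells that use a segment and less RNA per cell cannot be told apart.

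The sequences below are GENCODE release 21 transcript sequences (GRCm38, chromosome 6). They show all or part of the annotated segments. What the counted reads contain was not tested. The D segments, both on the plus strand, at chr6:41533201-41533212 for Trbd1 and chr6:41542163-41542176 for Trbd2, are shorter than any usual read, so reads counted for them also contain other sequence.
Trbd1: gggacagggggc
Trbd2: gggactgggggggc
The J segments are between 46 and 54 bases in the annotation. The 4 with the highest mean share of counts are shown, followed by Trbj1-1, which was close to absent. Capitals mark the letters TTNGG followed by 4 bases of any kind and GG, which in most J segments encode the conserved phenylalanine and glycines at the start of the fourth framework.
Trbj1-4: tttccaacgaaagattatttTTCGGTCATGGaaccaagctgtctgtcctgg
Trbj2-6: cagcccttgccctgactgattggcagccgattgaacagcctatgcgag
Trbj2-7: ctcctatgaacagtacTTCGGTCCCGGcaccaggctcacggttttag
Trbj2-2: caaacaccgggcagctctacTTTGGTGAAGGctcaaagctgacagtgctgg
Trbj1-1: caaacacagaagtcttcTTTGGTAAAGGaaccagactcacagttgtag
These letters were found in 11 of the 13 segments that the annotation types as J genes, all but Trbj1-6 and Trbj1-7. They were found in 0 of 1 pseudogene, Trbj2-6. On the opposite strand they were found in none of the 14. The same letters, on either strand, stood in the last 50 bases of 1.59% of 141621 transcripts of other genes. Trbj2-6 was nonetheless among the most counted J segments, as described below.

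The last 30 bases of 5 V segments, the end that is joined to D and J, are shown for the 2 most counted segments, for Trbv2 and Trbv29, and for the inverted Trbv31. Capitals mark TGTGCCAGC, the most frequent 9 letters in this window over the V genes, which are the codons for the conserved cysteine and the alanine and serine that often follow it at the start of the third hypervariable loop.
Trbv3: gtgtacttcTGTGCCAGCagcttagccaca
Trbv15: agctgtgtatctgTGTGCCAGCagtttagc
Trbv2: ggccacatacttcTGTGCCAGCagccaaga
Trbv29: atctgtgtacttctgtgctagcagtttatc
Trbv31: ctggcttctacctctgtgcctggagtctca
These 9 letters stood in the last 30 bases of 13 of 22 V genes and 4 of 13 V pseudogenes, on the coding strand. On either strand they stood in the last 30 bases of 0.0233% of transcripts of other genes.

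The constant segments are nearly identical where the J segment is spliced to them. Over the 375 coding bases of exon 1 they differ at 1 base, shown with its surroundings (bases 240 to 280 of the coding sequence) and marked by a capital.
Trbc1: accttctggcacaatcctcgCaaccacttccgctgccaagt
Trbc2: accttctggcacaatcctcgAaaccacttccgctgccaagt
Over the 143 coding bases after exon 1 they differ at 22, which are capitals here.
Trbc1: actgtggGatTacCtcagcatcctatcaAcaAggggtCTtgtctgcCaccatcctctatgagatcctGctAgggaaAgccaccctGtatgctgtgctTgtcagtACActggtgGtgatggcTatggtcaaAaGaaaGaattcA
Trbc2: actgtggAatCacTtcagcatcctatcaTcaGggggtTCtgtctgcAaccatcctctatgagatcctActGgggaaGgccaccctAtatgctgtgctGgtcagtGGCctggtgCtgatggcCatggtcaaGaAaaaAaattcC
Of all 50-base stretches of the gene models, 59.5% in Trbc1 and 56.0% in Trbc2 occur in no other annotated transcript. The count table keeps reads without a unique alignment in a row of their own, 13.3% (WT replicate 2) to 15% (ON replicate 1) of reads. A read reported as matching both genes would be set aside there and counted for neither. The aligner is not stated, so the split between Trbc1 and Trbc2 is uncertain to the extent that such reads were reported as unique.

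Between 17025551 and 19319183 reads per library were assigned to genes. Trb segments received 10699 and 11356 counts in OFF, 13556 and 14116 in ON and 10269 and 9908 in WT. Rbpj, the DNA-binding partner of Notch, was at 29.8 and 31.7 CPM (counts scaled by library size) in OFF, 98.2 and 79.6 CPM in ON and 36.1 and 35.3 CPM in WT, and OFF was lower than ON (-1.53 ± 0.14, log2 fold change ± SE; adjusted p = 0.00195, edgeR's quasi-likelihood test with Benjamini-Hochberg adjustment). Cd4, which defines the sort, had 11238 and 11679 counts in OFF, 13515 and 12992 in ON and 10764 and 10381 in WT. Ptcra, the pre-T cell receptor alpha chain of thymocytes, had 2 counts in WT replicate 1 and 0 in the other libraries. Between replicates of a group, the chi-square of Trbv counts divided by its degrees of freedom came to 2.76 for OFF, 8.93 for ON and 3.3 for WT, where sampling noise alone gives about 1, so the ON pair was the least alike.

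The 35 Trbv rows held 3349 and 3723 counts in OFF, 4573 and 4130 in ON and 3286 and 2919 in WT. Shares below are percentages of these totals, with a 95% Clopper-Pearson interval where one is given; intervals and zero-count limits cover counting error only. A small set of segments carried most of the signal in each library. The 18 segments with a mean share of at least 1% held between 98.1% and 98.6% of Trbv counts, and the 5 highest segments of a library held 55.5% and 56.5% in OFF, 59.2% and 56.0% in ON and 54.9% and 55.3% in WT.

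Trbv3 (older name Tcrb-V16) was the most counted V segment in all 6 libraries. It had 694 and 788 counts in OFF, 1214 and 949 in ON and 727 and 523 in WT. Its share was 20.7% (19.4 to 22.1) and 21.2% (19.9 to 22.5) in OFF, 26.5% (25.3 to 27.9) and 23.0% (21.7 to 24.3) in ON and 22.1% (20.7 to 23.6) and 17.9% (16.5 to 19.4) in WT. Both ON libraries lay above all others, by less than the distance between the WT replicates in the case of ON replicate 2. With counts divided by the exonic length of each gene model Trbv3 still ranked first, at 19.4% on average. Trbv15 (Tcrb-V12) ranked second on either scale. It had 387 and 432 counts (11.6% and 11.6%) in OFF, 427 and 344 counts (9.34% and 8.33%) in ON and 356 and 330 counts (10.8% and 11.3%) in WT. OFF was highest and ON lowest for Trbv15, with no overlap between any pair of groups.

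The Trbv13 family, whose members correspond to the older Tcrb-V8 family, held 3 of the 10 highest places. Trbv13-2 (Tcrb-V8.2), a segment favoured by mouse invariant natural killer T (NKT) cells, had 297 and 371 counts (8.87% and 9.97%) in OFF, 335 and 309 (7.33% and 7.48%) in ON and 256 and 282 (7.79% and 9.66%) in WT. Trbv13-1 (Tcrb-V8.3) had 253 and 309 counts (7.55% and 8.30%) in OFF, 423 and 286 (9.25% and 6.92%) in ON and 242 and 265 (7.36% and 9.08%) in WT, with overlapping groups. Trbv13-3 (Tcrb-V8.1) had 178 and 197 counts (5.32% and 5.29%) in OFF, 259 and 235 (5.66% and 5.69%) in ON and 190 and 195 (5.78% and 6.68%) in WT. The family as a whole took 21.7% and 23.6% in OFF, 22.2% and 20.1% in ON and 20.9% and 25.4% in WT, so its total share overlapped between all groups. Trbv13-2 and Trbv13-3 are 91.7% identical over their last 290 bases, the closest pair among 231 pairs of V genes, whose median identity is 53.7%. A stretch of 90 bases in which the 3 members differ at 25 positions, marked by capitals, shows what separates them.
Trbv13-1: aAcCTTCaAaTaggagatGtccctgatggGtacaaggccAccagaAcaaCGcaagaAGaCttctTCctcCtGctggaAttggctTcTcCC
Trbv13-2: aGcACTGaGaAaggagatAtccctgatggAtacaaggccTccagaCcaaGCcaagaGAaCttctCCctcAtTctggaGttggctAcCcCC
Trbv13-3: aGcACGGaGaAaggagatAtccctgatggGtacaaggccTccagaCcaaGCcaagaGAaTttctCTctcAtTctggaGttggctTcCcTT
Despite the likeness, 99.7% of the 50-base stretches of Trbv13-2 and of Trbv13-3 occur in no other transcript.

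Trbv2 (Tcrb-V4) stood apart in 1 library. It had 227 and 202 counts (6.78% and 5.43%) in OFF, 301 and 416 (6.58% and 10.1%) in ON and 207 and 213 (6.30% and 7.30%) in WT. The interval of ON replicate 2, with a lower bound of 9.17%, lay above those of the other 5 libraries. Trbv16 (Tcrb-V11) and Trbv1 (Tcrb-V2) also spread widely within groups. Trbv16 had 197 and 154 counts (5.88% and 4.14%) in OFF, 211 and 294 (4.61% and 7.12%) in ON and 217 and 137 (6.60% and 4.69%) in WT. Trbv1 had 112 and 196 counts (3.34% and 5.26%) in OFF, 161 and 236 (3.52% and 5.71%) in ON and 144 and 145 (4.38% and 4.97%) in WT. For both segments the groups overlapped. Trbv19 (Tcrb-V6) had 187 and 193 counts (5.58% and 5.18%) in OFF, 307 and 208 (6.71% and 5.04%) in ON and 224 and 187 (6.82% and 6.41%) in WT. Trbv20 (Tcrb-V15) had 139 and 140 counts (4.15% and 3.76%) in OFF, 170 and 83 (3.72% and 2.01%) in ON and 128 and 103 (3.90% and 3.53%) in WT, with ON replicate 2 the lowest.

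**Figure D1:**
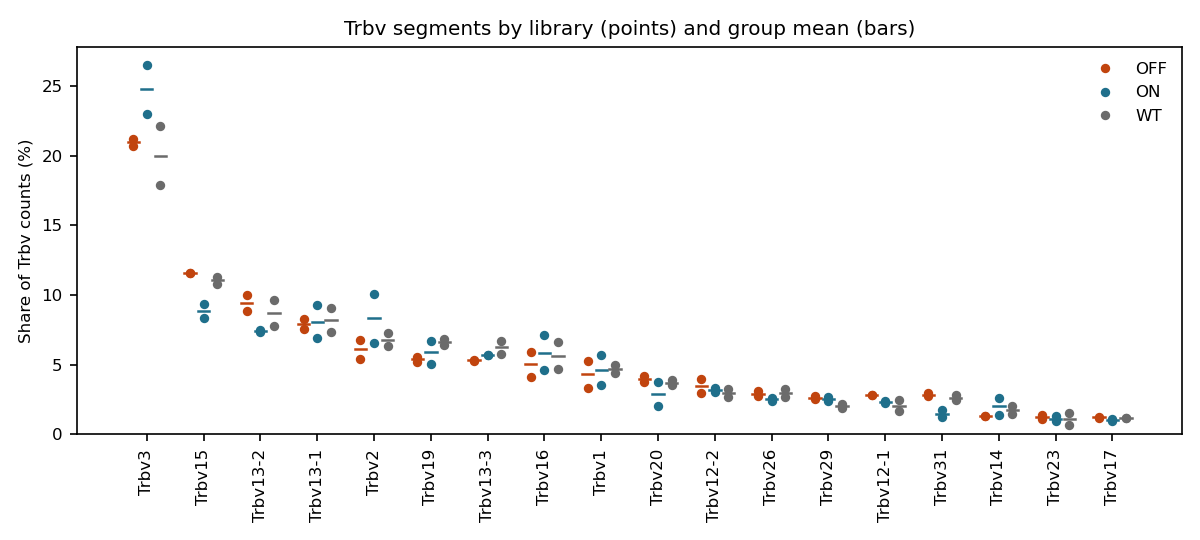
Share of Trbv counts (%, vertical axis) of the 18 Trbv segments with a mean share of at least 1%, ordered by mean share; points are the 2 libraries of OFF, ON and WT and bars the group means. Trbv3 lies highest in every library, and Trbv31 lies lower in both ON libraries (1.22% and 1.72%) than in the OFF and WT libraries.

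The order along the chromosome did not follow the order of abundance. Trbv1, the segment farthest from the D-J-C clusters at 642.0 kb before Trbd1, averaged 4.53%. Trbv2 and Trbv3 lie next to each other, 485.9 and 484.9 kb before Trbd1, and averaged 7.08% and 21.9%. Trbv30, the nearest upstream V segment at 251.8 kb, had between 8 and 40 counts and averaged 0.486%. Trbv31, which begins 24.5 kb after Trbd1 on the minus strand, averaged 2.31%. The 28 other annotated genes within the span, among them trypsinogen genes such as Prss2 and Try5, had 131 counts in all over the 6 libraries, and 20 of them had any count. The segments were thus counted in a stretch of the chromosome whose other genes had few or no counts.

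**Figure D2:**
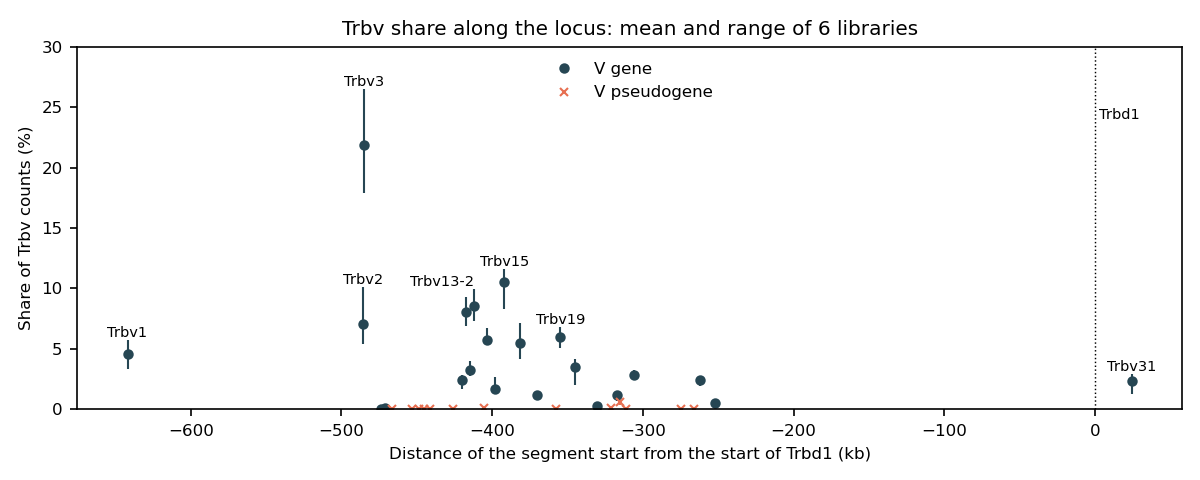
Mean share of Trbv counts (%, vertical axis) against the distance of each segment from the start of Trbd1 (kb, horizontal axis), with vertical lines from the lowest to the highest of the 6 libraries. V genes are filled circles and V pseudogenes crosses; the pseudogenes lie near 0, and Trbv31 is the point to the right of Trbd1.

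The segments that GENCODE types as V pseudogenes together held 30 and 35 counts (0.896% and 0.940% of Trbv counts) in OFF. Their counts were 31 and 21 (0.678% and 0.508%) in ON and 37 and 21 (1.13% and 0.719%) in WT. Trbv24 (Tcrb-V3.2) supplied most of them, with 26 and 25 counts in OFF, 22 and 14 in ON and 24 and 11 in WT. GENCODE types Trbv24 as a pseudogene and RefSeq as a V segment, while Trbv29 (Tcrb-V7), with between 56 and 111 counts, is a V gene in GENCODE and a pseudogene in RefSeq. The 6 pseudogenes Trbv8, Trbv9, Trbv10, Trbv11, Trbv27 and Trbv28 had 0 counts in all libraries. Trbv8 shares its exon with AC153851.1 on the same strand, and 0 of its 236 stretches of 50 bases occur in no other transcript, so its 0 sets no limit on its share. For the other 5, a count of 0 allows a share of up to 3 counts of the Trbv total, which is 0.0896% and 0.0806% in OFF, 0.0656% and 0.0726% in ON and 0.0913% and 0.103% in WT. The other 11 segments under a mean share of 1% that had any count lay between 0 and 40 counts in each library.

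Among V genes, Trbv4 (Tcrb-V10) and Trbv5 (Tcrb-V1) were almost uncounted. Trbv4 had 3 counts in ON replicate 2 and 0 in the other libraries. Trbv5 had 1 and 3 counts in OFF, 1 and 3 in ON and 3 and 3 in WT. Their exons overlap those of the annotated long non-coding RNA 5830405F06Rik on the same strand over 295 and 292 bases, and 27.9% and 22.6% of their 50-base stretches occur in no other transcript. 5830405F06Rik itself had 6 and 1 counts in OFF, 10 and 4 in ON and 7 and 9 in WT. The table keeps ambiguous reads in a row of their own, and the part of the overlap in the low counts of Trbv4 and Trbv5 was not tested.

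The 14 Trbj rows held 762 and 505 counts in OFF, 765 and 922 in ON and 660 and 844 in WT. Trbj1-4 was the most counted, with 100 and 61 counts (13.1% and 12.1% of Trbj counts) in OFF, 118 and 129 (15.4% and 14.0%) in ON and 114 and 129 (17.3% and 15.3%) in WT. OFF was lowest for this segment and did not overlap with ON or WT. The pseudogene Trbj2-6, which lies between Trbj2-5 and Trbj2-7, came second, with 81 and 71 counts (10.6% and 14.1%) in OFF, 102 and 122 (13.3% and 13.2%) in ON and 66 and 103 (10% and 12.2%) in WT. A high count of Trbj2-6 was thus present in each group. Trbj2-7 had 94 and 69 counts (12.3% and 13.7%) in OFF, 61 and 113 (7.97% and 12.3%) in ON and 92 and 88 (13.9% and 10.4%) in WT. Trbj2-2 had 89 and 47 counts (11.7% and 9.31%) in OFF, 74 and 108 (9.67% and 11.7%) in ON and 70 and 98 (10.6% and 11.6%) in WT. At the other end, Trbj1-1, Trbj2-4 and Trbj2-5, all typed as J genes, had between 0 and 11 counts per library. All of their 30-base stretches nonetheless occur in no other transcript.

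With the pseudogene Trbj2-6 counted, cluster 2 held about as many joining-segment counts as cluster 1. Its share of Trbj counts was 51.05% (47.4 to 54.7) and 55.6% (51.2 to 60.0) in OFF, 48.6% (45.0 to 52.2) and 51.4% (48.1 to 54.7) in ON and 47.4% (43.6 to 51.3) and 48.5% (45.0 to 51.9) in WT. OFF exceeded WT by 5.40 percentage points (exact permutation test, two-sided, p = 0.333) and ON by 3.33 points (p = 0.667, exact), and ON exceeded WT by 2.08 points (p = 0.333, exact). OFF replicate 2 carried much of this, since without it OFF exceeded WT by 3.11 points and ON by 1.03 points, and without OFF replicate 1 OFF exceeded ON by 5.62 points. Without ON replicate 2, ON exceeded WT by 0.685 points and OFF exceeded ON by 4.72 points, and without ON replicate 1 OFF exceeded ON by 1.94 points and ON exceeded WT by 3.47 points. Over the 13 segments typed as J genes alone, cluster 2 held the smaller part in every library. Its share was then 45.2% and 48.4% in OFF, 40.7% and 44% in ON and 41.6% and 41.3% in WT. On that basis OFF did not overlap with ON or WT (differences of 4.45 and 5.37 points), and ON overlapped with WT (0.923 points). With 2 libraries against 2 the smallest p this test allows is 0.333, so it cannot pass a threshold of 0.05; exact permutation tests were run on 14 measures in 3 comparisons, and none could reach it.

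**Figure D3:**
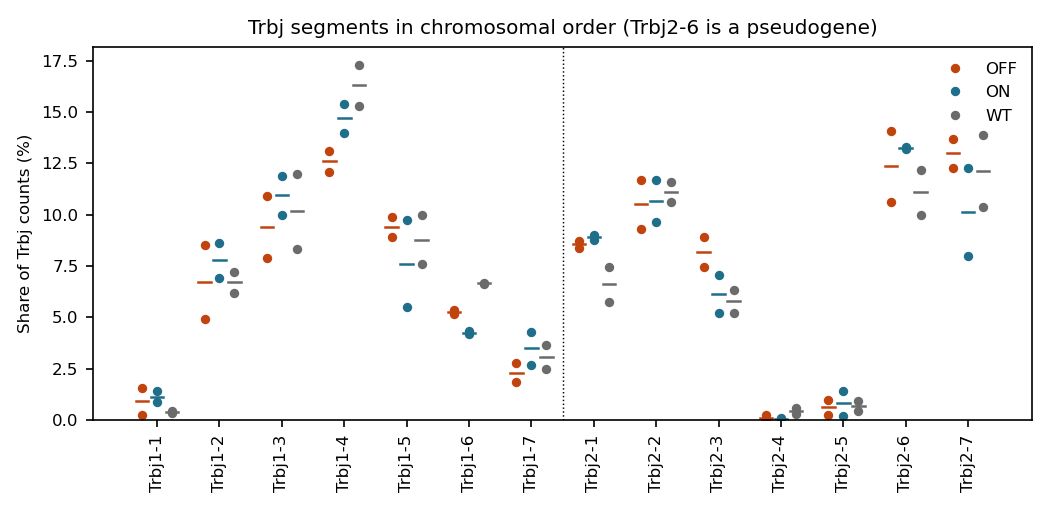
Share of Trbj counts (%, vertical axis) of the 14 Trbj segments in chromosomal order, with cluster 1 left and cluster 2 right of the dotted line; points are the 2 libraries of OFF, ON and WT and bars the group means. The pseudogene Trbj2-6 lies between 10% and 14.1%, while Trbj1-1, Trbj2-4 and Trbj2-5 lie near 0.

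The D segments gave few counts. Trbd1 had 73 and 67 counts in OFF, 73 and 133 in ON and 65 and 54 in WT, with ON replicate 2 the highest. Trbd2 had 13 and 21 counts in OFF, 4 and 17 in ON and 15 and 18 in WT. The constant segments held the largest part of the Trb signal, 6502 and 7040 counts in OFF, 8141 and 8914 in ON and 6243 and 6073 in WT. Trbc1 was at 168 and 172 CPM in OFF, 206 and 272 in ON and 164 and 165 in WT, and Trbc2 at 208 and 251 CPM in OFF, 210.0 and 170 in ON and 209.5 and 188 in WT. Per kilobase of exon, Trbc2 was the higher in 5 libraries (300 and 362 CPM per kb in OFF, 303 in ON replicate 1, 303 and 271 in WT, against 224, 230, 275, 219 and 221 for Trbc1). In ON replicate 2 the order was turned, with 246 CPM per kb for Trbc2 and 363 for Trbc1. As a share of Trbc counts, Trbc2 held 55.3% and 59.2% in OFF, 50.5% and 38.5% in ON and 56.1% and 53.2% in WT. The J counts of ON replicate 2 did not show the same turn. Cluster 2 held 51.4% of Trbj counts there, against 47.4% and 48.5% in WT. The source of this difference between J and constant segments was not tested.

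**Figure D4:**
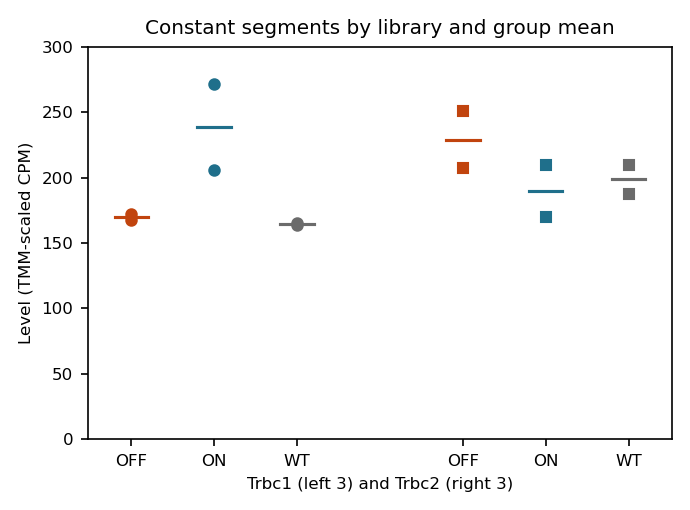
Level in TMM-scaled CPM (vertical axis) of Trbc1 (left, circles) and Trbc2 (right, squares) in the libraries of OFF, ON and WT, with bars at the group means. Trbc1 is higher in both ON libraries (206 and 272) than in the other 4, and Trbc2 overlaps between the groups.

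The filter on low counts left 35 of the 53 segments for testing, 20 Trbv, 11 Trbj, both Trbd and both Trbc. The 18 left out were 12 V pseudogenes, the V genes Trbv4, Trbv5 and Trbv21 and the 3 near-absent J segments, none with more than 14 counts in a library. Because this filter keeps genes through whichever group is high, counts over the 35 describe the segments that passed it.

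OFF against ON sets cells taken after 1 week without Dox beside cells kept on Dox for 4 weeks. Stopping Dox and losing Notch responsiveness cannot be told apart in this comparison. No Trb segment passed the test (0 of 35, by edgeR and by DESeq2), against 1.03% of all 15780 genes tested (0.602% higher and 0.425% lower). At an unadjusted p under 0.05 there were 3 (8.57%), namely Trbc1, Trbv31 and Trbv2, against 19.1% of all genes. The median log2 fold change was -0.11 over the 35 segments, 0.02 over the 20 Trbv and -0.25 over the 11 Trbj, and 0.00 over all genes. The libraries of OFF and ON did not overlap in CPM for 11 segments (31.4%), 5 higher and 6 lower in OFF, against 46.7% of all genes (23.4% higher and 23.3% lower).

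The inverted segment Trbv31 (Tcrb-V14) had the largest fold of mean share among the segments of at least 1% whose OFF and ON libraries did not overlap. It had 98 and 102 counts in OFF, 56 and 71 in ON and 92 and 71 in WT. Its share was 2.93% (2.38 to 3.55) and 2.74% (2.24 to 3.32) in OFF, 1.22% (0.926 to 1.59) and 1.72% (1.35 to 2.16) in ON and 2.80% (2.26 to 3.42) and 2.43% (1.90 to 3.06) in WT. Both OFF libraries lay above both ON libraries, outside their counting intervals, and the group means differed 1.92-fold. The log2 fold change between OFF and ON was 0.88 ± 0.27 (edgeR adjusted p = 0.134). When the Trbv total of each library was used as library size for all genes, so that a change is one of share, it was 0.95 ± 0.31 (edgeR adjusted p = 0.176). Under that scaling 0 of the 35 segments were called in each of the 3 comparisons, against 0.862% of all genes in OFF against ON, 12.6% in ON against WT and 7.37% in OFF against WT. The difference therefore did not pass the threshold on either scale.

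Of the 18 segments of at least 1%, 7 had a higher share in both OFF libraries than in both ON libraries (Trbv12-1, Trbv13-2, Trbv15, Trbv17, Trbv20, Trbv26 and Trbv31). A lower share was found for 3 (Trbv3, Trbv13-3 and Trbv14), and 8 overlapped. For shares there is no value over all genes to compare with. In CPM, 46.7% of all genes did not overlap between OFF and ON. The next largest folds of mean share after Trbv31 were those of Trbv14 and Trbv20. Trbv14 (Tcrb-V13) had 44 and 48 counts (1.31% and 1.29%) in OFF, 65 and 108 (1.42% and 2.62%) in ON and 66 and 43 (2.01% and 1.47%) in WT. Its mean share in OFF was 0.645 of that in ON, and its log2 fold change of -0.68 ± 0.35 did not pass (edgeR adjusted p = 0.323). The difference rests on ON replicate 2, being -0.717 percentage points with it and -0.12 without it. Trbv20 had a mean share 1.38 times higher in OFF than in ON, a difference that rests on ON replicate 2 (1.09 percentage points with it and 0.238 without it), and a log2 fold change of 0.36 ± 0.32 (edgeR adjusted p = 0.575).

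Trbc1 was lower in OFF than in ON by a log2 fold change of -0.49 ± 0.14, and Trbc2 had 0.27 ± 0.15, and neither passed (edgeR adjusted p = 0.122 and 0.348). Without ON replicate 1 the call on Trbc1 was reached (-0.67, adjusted p = 0.0176), and without ON replicate 2 the value was -0.29 (adjusted p = 0.268). The share of Trbc2 among Trbc counts was 57.3% ± 2.82 in OFF and 44.5% ± 8.50 in ON (SD, n = 2 each; exact permutation p = 0.333).

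ON against WT sets Notch-responsive immature RBPJind cells beside mature wild-type cells. One segment, Trbc1, was higher in ON, 1 of 35 tested against 14.8% of all genes called in either direction, 9.68% called higher and 5.16% called lower. It averaged 239 ± 46.5 CPM in ON and 165 ± 0.954 CPM in WT (SD, n = 2 each), a log2 fold change of 0.54 ± 0.14 (edgeR adjusted p = 0.0328). The fold fell to 0.35 without ON replicate 2 (adjusted p = 0.0944), and the call was also lost without WT replicate 1 or WT replicate 2 (0.54 and 0.56, adjusted p = 0.195 in both). With Trbv totals as library sizes the log2 fold change of Trbc1 was 0.29 ± 0.23 (adjusted p = 0.413). That scaling moved the median of all genes by -0.26 in this comparison, -0.19 between OFF and WT and 0.07 between OFF and ON. Trbc2 had -0.06 ± 0.15 (edgeR adjusted p = 0.807).

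ON replicate 2 held the highest Trbc1, Trbd1 and Trbv2 and also the highest Cd3g, which encodes the gamma chain of the CD3 complex. Cd3g had 8517 and 8438 counts in OFF, 10441 and 21397 in ON and 7915 and 7680 in WT, and did not pass in ON against WT (0.79 ± 0.28, edgeR adjusted p = 0.0982). The part of this library in the result for Trbc1 is shown by the values without it, given above.

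Most V segments had a level above that of WT, by amounts that did not pass the test. Of the 20 tested, 16 had a log2 fold change above 0 between ON and WT, with a median of 0.24, where 48.3% of all genes were above 0 with a median of -0.02. The libraries of ON and WT did not overlap in CPM for 10 of the 35 segments (28.6%), 6 higher and 4 lower in ON, against 59.9% of all genes (29.8% higher and 30% lower). The summed Trbv level was 234 and 205 CPM in ON and 196 and 170 CPM in WT, with no overlap (219 ± 20.5 and 183 ± 19.0, SD, n = 2 each; exact permutation p = 0.333). The summed Trbc level was 416 and 442 CPM in ON and 373 and 353 CPM in WT (exact permutation p = 0.333), while the summed Trbj level overlapped, with 39.1 and 45.7 CPM in ON and 39.5 and 49.1 CPM in WT. Trbv2 (0.54 ± 0.19, adjusted p = 0.0814) and Trbv3 (0.56 ± 0.20, adjusted p = 0.0851) had the smallest p among V segments by edgeR. Among all alternatives run, Trbv2 was called without ON replicate 1 and Trbv3 without ON replicate 2, and both were called with 1 other pairing of the replicate numbers, chosen after seeing the data.

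By share, 2 of the 18 segments of at least 1% were higher in both ON libraries than in both WT libraries (Trbv3 and Trbv29). Another 6 had a lower share (Trbv13-2, Trbv13-3, Trbv15, Trbv17, Trbv26 and Trbv31), and 10 overlapped. The shares of a library add up to 100%, so they do not vary independently. In CPM, Trbv13-2 (0.03 ± 0.18), Trbv13-3 (0.13 ± 0.18), Trbv17 (0.08 ± 0.33) and Trbv26 (0.04 ± 0.25) were not lower in ON by log2 fold change. Both ON libraries even lay above both WT libraries for Trbv13-3, whereas Trbv15 and Trbv31 were below 0, as given below. In CPM, 59.9% of all genes did not overlap between ON and WT. Trbv31 had a mean share in ON of 0.563 of that in WT, the largest fold of this comparison, with a log2 fold change of -0.59 ± 0.28 in CPM (edgeR adjusted p = 0.182) and -0.84 ± 0.32 with Trbv totals as library sizes (edgeR adjusted p = 0.0922). Trbv15 had a mean share of 0.798 of that in WT, and its level in CPM was close to equal (-0.06 ± 0.17, edgeR adjusted p = 0.853). Trbv29 (Tcrb-V7), another segment used by invariant NKT cells, had 84 and 103 counts (2.51% and 2.77%) in OFF, 110 and 111 (2.41% and 2.69%) in ON and 71 and 56 (2.16% and 1.92%) in WT. Its share was 1.25 times higher in ON than in WT, and its log2 fold change of 0.57 ± 0.26 did not pass (edgeR adjusted p = 0.178).

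OFF against WT sets cells that lost Notch responsiveness beside mature wild-type cells, and shares its libraries with both comparisons above. No segment passed (0 of 35, by edgeR and by DESeq2), against 6.83% of all genes (4.7% higher and 2.14% lower). At an unadjusted p under 0.05 there were 2 (5.71%), Trbv12-1 and Trbj1-4, against 22.1% of all genes. V segments were mostly above 0, 16 of 20 with a median log2 fold change of 0.25. Trbj segments were mostly below, 2 of 11 above 0 with a median of -0.18. Over all genes 51.1% were above 0 with a median of 0.01. The summed Trbv level overlapped, with 193.5 and 223.7 CPM in OFF and 196.5 and 169.7 CPM in WT (exact permutation p = 0.667). The libraries of OFF and WT did not overlap in CPM for 14 of the 35 segments (40%), 11 higher and 3 lower in OFF, against 55.7% of all genes (29.8% higher and 25.8% lower).

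Trbv12-1 (Tcrb-V5.2) had 94 and 104 counts (2.81% and 2.79%) in OFF, 102 and 100 (2.23% and 2.42%) in ON and 56 and 71 (1.70% and 2.43%) in WT. Its share was 1.35 times higher in OFF than in WT, with a log2 fold change of 0.64 ± 0.25 (edgeR adjusted p = 0.175). Trbv29 had a share 1.29 times higher in OFF (0.56 ± 0.27, edgeR adjusted p = 0.264), and Trbv14 a mean share of 0.748 of that in WT (-0.25 ± 0.37, edgeR adjusted p = 0.769). Trbj1-4 was at 5.78 and 3.67 CPM in OFF, against 6.82 and 7.50 CPM in WT (-0.60 ± 0.26, edgeR adjusted p = 0.222). Trbc1 differed by 0.05 ± 0.14 (edgeR adjusted p = 0.893), and Trbc2 by 0.21 ± 0.15 (edgeR adjusted p = 0.471). In all, 3 of the 18 segments of at least 1% had a higher share in both OFF libraries than in both WT libraries (Trbv12-1, Trbv15 and Trbv29). Another 3 had a lower one (Trbv13-3, Trbv14 and Trbv19), and 12 overlapped. In CPM, 55.7% of all genes did not overlap between OFF and WT.

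**Figure D5:**
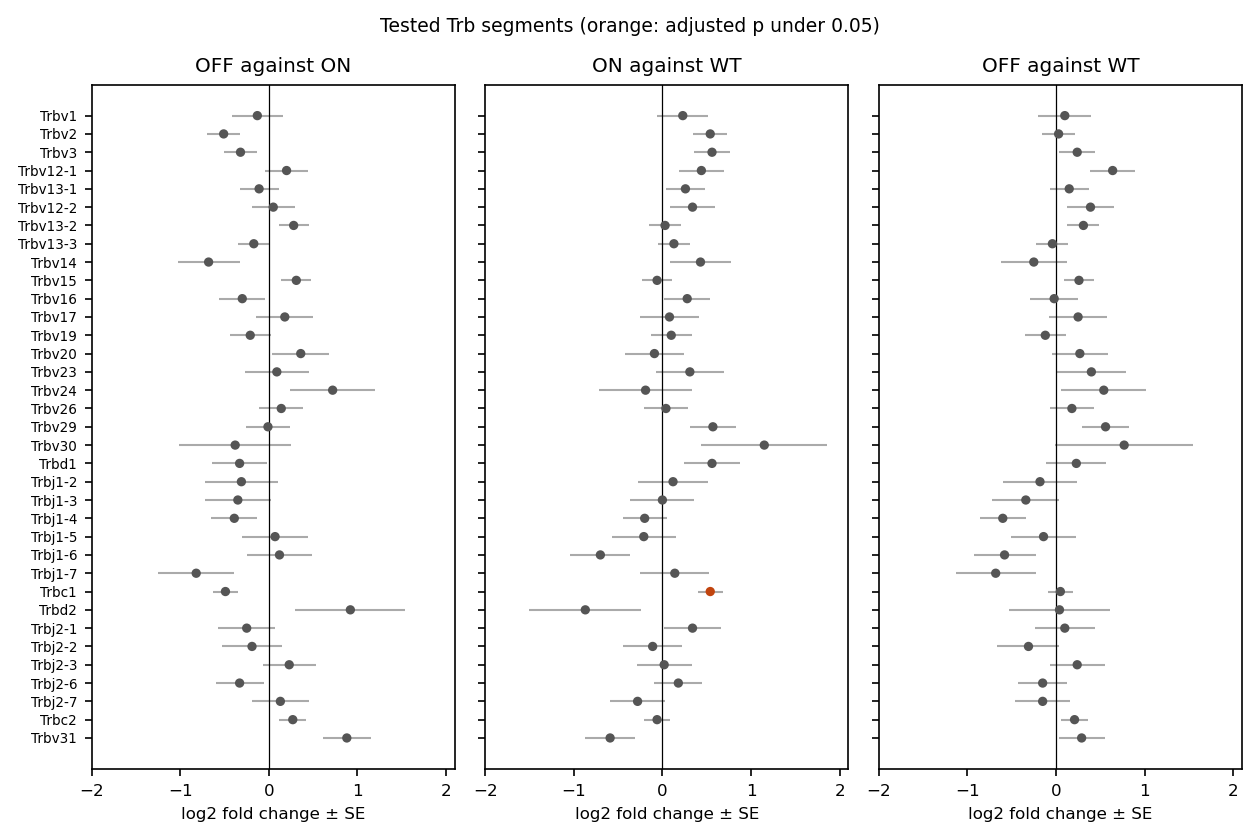
Log2 fold change ± SE (horizontal axis) of the 35 tested Trb segments, in chromosomal order from top to bottom, for OFF against ON, ON against WT and OFF against WT. Trbc1 in ON against WT (0.54) is the single orange point, which marks an adjusted p under 0.05.

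The breadth of V use was summarised as the effective number of segments, the exponential of the Shannon entropy of the shares, which equals the number of equally used segments that would give the same entropy. It was 14.4 and 14.39 in OFF, 13 and 13.95 in ON and 14.22 and 14.75 in WT. OFF was higher than ON by 0.923 segments, and ON differed from WT by -1.01, without overlap (exact permutation p = 0.333 for each), and OFF overlapped with WT (exact permutation p = 1.0). These values rest in part on ON replicate 1, since without it OFF was higher than ON by 0.449 and ON differed from WT by -0.54, against 1.4 and -1.49 without ON replicate 2. V profiles of libraries were also compared by the percentage of counts that would have to move between segments to make them equal. Replicates of a group differed by 5.70% in OFF, 11.6% in ON and 9.13% in WT, and libraries of different groups by 5.90% to 13.4%. The distances between groups therefore lay largely within the range of those between replicates. For J profiles the distances were 10.3% to 10.7% between replicates and 6.21% to 15.9% between groups.

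The genes that build and carry the beta chain were read from lists. Of 5 tested genes of the CD3 complex and the alpha chain constant segment, 0 passed in each comparison. Trac, which encodes that constant segment, was at 312 and 419 CPM in OFF, 289 and 226 in ON and 285 and 258 in WT. For OFF against ON its log2 fold change was 0.51 ± 0.17 (edgeR adjusted p = 0.156). That is opposite in sign to Trbc1 (-0.49) and of the same sign as Trbc2 (0.27), and neither of these passed. The list of V(D)J recombination genes had 13 of 15 members tested. Between OFF and ON 1 of the 13 was lower, where 1.03% of all genes passed. Between ON and WT 2 were higher with 1 lower, where 14.8% of all genes passed, and between OFF and WT 1 was higher, where 6.83% passed. Rag1 had between 1 and 11 counts and Rag2 between 0 and 7, so neither recombinase gene was measurable at this depth. Dntt, the polymerase that adds nucleotides at the junctions, had 137 and 89 counts in OFF, 98 and 270 in ON and 156 and 201 in WT. In CPM, ON (5.01 and 13.4) overlapped both other groups, while OFF (7.91 and 5.35) lay below WT (9.33 and 11.7) without passing the test (-0.66 ± 0.43, edgeR adjusted p = 0.428).

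The recombination genes that passed were mostly high mobility group genes, which bend DNA for the recombinase and have many other roles in chromatin. Hmgb2 was at 223 and 292 CPM in OFF, 602 and 425 in ON and 138 and 113 in WT. It was lower in OFF than in ON (-1 ± 0.19, adjusted p = 0.0491) and higher than in WT both in ON (2.03 ± 0.20, adjusted p = 0.000395) and in OFF (1.04 ± 0.19, adjusted p = 0.016) by edgeR. Hmgb1 was higher in ON than in WT (0.85 ± 0.14, edgeR adjusted p = 0.00449). Prkdc, the catalytic subunit of the DNA-dependent protein kinase, was lower in ON than in WT (-0.43 ± 0.12, edgeR adjusted p = 0.0443). Of 10 factors known to act on the Trb locus or its allelic exclusion, 0 passed between OFF and ON, where 1.03% of all genes passed. Between ON and WT 2 were higher and 1 lower, where 14.8% of all genes passed. Between OFF and WT 1 was higher, where 6.83% passed. In ON against WT the cohesin subunit Rad21 (0.76 ± 0.11, adjusted p = 0.0032) and the E protein Tcf3 (0.68 ± 0.16, adjusted p = 0.0205) were higher and the chromatin organiser Satb1 was lower (-0.60 ± 0.14, adjusted p = 0.0193) by edgeR. Gata3 was higher in OFF than in WT (0.48 ± 0.12, edgeR adjusted p = 0.0471). Of 13 non-TCR genes of the locus and its flanks, 3 were tested. Of these 1, Mgam, was lower in OFF than in WT, where 6.83% of all genes passed. Mgam had 3 and 4 counts in OFF, 8 and 18 in ON and 29 and 18 in WT. Neither OFF library reached the minimum count of 10, so Mgam passed the filter through the other groups.

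Some markers of other cell types passed the test against WT, where 6.83% of all genes passed in OFF and 14.8% in ON. The 3 regulatory T cell markers (Foxp3, Il2ra, Ikzf2) were all higher than in WT both in OFF and in ON, with summed levels of 169 and 326 CPM in OFF, 175 and 111 in ON and 14.8 and 14.0 in WT, although CD25+ cells were gated out. Of 5 invariant NKT cell markers 1, Zbtb16, was lower in ON than in WT, with a summed level of 29.3 and 17.8 CPM in OFF, 20.3 and 21.1 in ON and 22.9 and 27.3 in WT. Most of that sum is Traj18, a joining segment that conventional alpha chains can also use, and the other 4 markers summed to 2.02 and 2.88 CPM in OFF, 0.92 and 1.09 in ON and 3.89 and 2.79 in WT. Trav11 had 0 counts in all libraries. For gamma-delta T cells, 2 of 5 markers were found in the table, and Trdc was higher than in WT both in OFF and in ON (8.38 and 10.4 CPM in OFF, 10.3 and 7.53 in ON, 5.02 and 3.84 in WT). Of 2 CD8 T cell markers, Cd8a was higher than in WT both in OFF and in ON, with 53 and 68 counts in OFF, 112 and 118 in ON and 7 and 22 in WT. B cell markers had 4 of 5 members higher in OFF than in WT, whereas between ON and WT 3 were higher with 1 lower, with 193 and 231 CPM in OFF, 152 and 135 in ON and 197 and 180 in WT in sum. Ighm, the marker lower in ON, made up most of that sum, and the other 4 summed to 14.4 and 24.5 CPM in OFF, 11.8 and 9.71 in ON and 3.35 and 3.02 in WT. Of 5 myeloid and dendritic cell markers, 2 were higher in OFF than in WT and 3 in ON than in WT. No marker of these lists passed between OFF and ON, and no marker of erythroid cells or immature thymocytes passed in any comparison. Only 1 of 3 erythroid markers and 2 of 5 immature thymocyte markers were tested, so the others could not pass. The part of these cells in the Trb values was not tested.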

How the data were processed

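RNA from 6 sorted spleen samples, 3 groups of 2, was sequenced on a NovaSeq and aligned to GRCm38, per the labels' protocols. Tools listed in the submitters' processing notes are edgeR and R, version 3.6.2. The authors deposited raw counts per gene without normalization; for the aligner, counter, strand setting and annotation, nothing is stated. V, D, J and C segments are separate gene models, so how reads across their junctions were counted is unknown and can change each level. The 5 summary rows of reads not assigned to a gene were left out. They held 63.6% and 61% of reads in OFF, 56.8% and 53.1% in ON and 66.3% and 64.7% in WT. Among them were ambiguous reads (0.987% to 1.33%) and reads without a unique alignment (13.3% to 15%).

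Of 47729 identifiers 47224 matched GENCODE release 21. Counts were filtered with filterByExpr (minimum count 10, total 15; 15780 genes), scaled by TMM and tested with edgeR 4.0.16 (quasi-likelihood, robust; R 4.3.3) over all 6 libraries, with Benjamini-Hochberg adjustment and a threshold of 0.05. Steps were tested on simulated counts. Shares, effective numbers and exact permutation tests were computed in Python with scipy. Alternatives included DESeq2 1.42.0.

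Given for every library were Trbc, Trbd, the 10 Trbv and 4 Trbj of highest mean share, called segments, and per comparison the 3 Trbv of at least 1% with the largest fold of share among non-overlapping ones; the low-count segments, the fold of Trbj1-4 and genes outside the locus were named after their values were seen. Members and lists were chosen with earlier results of these data known.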

Additional observations from a re-analysis of the deposited data

How the results depend on the processing

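The count of Trb segments called was 0 in OFF against ON, 1 in ON against WT and 0 in OFF against WT. RLE scaling, no filter, a mean CPM of at least 1, DESeq2 and fitting only the 4 libraries compared left these 3 counts as they were. With Trbv totals as library sizes it was 0 in ON against WT. Leaving out each library in turn gave 0 to 1 for OFF against ON, 0 to 2 for ON against WT and 0 for OFF against WT; such a fit takes the spread of the remaining single library to equal that of the other groups. With the replicate number as a block, 0 segments were called in ON against WT, Trbc1 having an adjusted p of 0.0644, and 0 in the other comparisons; same-numbered samples correlated at -0.44 (OFF with ON), -0.40 (OFF with WT) and 0.16 (ON with WT) in their deviations from group means, and the labels name no animal or batch that a number stands for. Crossed blocks, chosen after seeing the data, gave 1, 3 and 0 segments (1210, 3755 and 2082 genes) with the OFF numbers swapped, which makes all 3 correlations positive, and 0, 1 and 0 segments (284, 2497 and 1376 genes) with the ON numbers swapped. Over 15 alternatives the log2 fold change of Trbc1 in ON against WT ranged between 0.29 and 0.75. Its edgeR adjusted p reached 0.413 with Trbv totals as library sizes. The call was kept in 10 and lost in 5, for which the cause was not tested. Those that kept it include both crossed blocks, chosen after seeing the data. They also include both fits without an OFF library, a group outside this comparison. Trbc1 in OFF against WT, at 0.05, changed sign to -0.14 (Trbv totals) and -0.01 (mean CPM of at least 1) and was 0.00 with only 4 libraries, never called.

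Of the values per library, the effective number of Trbv segments, OFF minus WT, was 0.0431 with only segments of at least 10 counts in every library, against -0.0914, and ranged from -0.356 to 0.173 when libraries were left out in turn. The summed Trbv level, OFF minus ON, ranged from -25.7 to 4.53 CPM in the same way, the summed Trbj level from -12 to 1.62 CPM for OFF minus ON and from -6.68 to 2.92 CPM for ON minus WT, and the summed Trbd level from -2.31 to 1.19 CPM and from -0.55 to 2.95 CPM. The mean share of Trbv3 was 19.4% per exonic length, against 21.9%. Of 42 differences in share between groups, 2 of 126 values under other denominators moved by more than 1 SD of the replicates. Leaving out a library changed the sign of 27 of 168 values, in 18 of the 42 differences. Among them, Trbv3 in OFF minus WT was 0.924 percentage points and -1.18 without WT replicate 2, Trbv2 in ON minus WT 1.53 and -0.216 without ON replicate 2, and Trbv16 in OFF minus ON -0.857 and 0.395 without ON replicate 2. The low counts of Trbj, Trbd and rare Trbv segments limit their precision.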
